A study of Mus musculus with 8 samples.

Results

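Complement is a set of plasma and cell-surface proteins that tag microbes and damaged cells and can lyse them. Described here are 8 of its genes in mouse 3T3-L1 cells: the components C3, C4b, C1ra, Cfb and Masp1 and the regulators Serping1, Cd55 and Cd59a. They were chosen by symbol, with every array probe that RefSeq transcript or gene name assigned to them, which gave 11 of the 55681 probes. Of the 8 genes, 7 were well above background on all 8 arrays and entered the test, with 10 of their probes, among 25804 tested genes and unnamed probes. Masp1 was above background on 1 array and was not tested.

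3T3-L1 is a mouse fibroblast line that takes on adipocyte features in adipogenic medium, in which it was kept for 1 week. The cells then received 2-fold diluted culture supernatant of HL-60 cells, a human leukaemia line, kept for 5 days with 30 nM PMA, a phorbol ester that drives these cells towards macrophages. The HL-60 cells carried either a knockdown of USP2, a deubiquitinating enzyme, or a mock vector. RNA from the treated 3T3-L1 cells went onto 1-colour Agilent arrays, so the question is what USP2 loss in the HL-60 cells does, through their medium, to the adipocyte-like cells.

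The 4 groups were cells given knockdown supernatant for 6 h, control supernatant for 6 h, knockdown supernatant for 3 h and control supernatant for 3 h, with 2 arrays each. All 4 groups shared the differentiation, the PMA and the dilution, and none of them was kept without HL-60 medium. The knockdown lies in human cells whose RNA is not on these arrays, so it was not checked here. The labels call the arrays of a group biological replicates without saying whether they shared a supernatant preparation, and p-values then measure only the spread between these samples. All arrays lay on 1 slide, with knockdown and control supernatant in different slide columns and the times in different slide rows, so supernatant and slide column, like time and slide row, cannot be told apart.

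Each array held 59305 spots that were not controls, of which 50.7% to 55.9% were well above background and 0 were saturated. Array 75th percentiles ran from 478 to 621 intensity units. Replicate arrays correlated at 0.988 to 0.998, lowest for control supernatant at 6 h, and up to 1.62% of an array's spots lay in areas raised together, none of them a spot of the 8 genes. The labels name the cells adipocytes. Of 15 adipocyte marker genes 6 were above background on all 8 arrays and 8 on none, Adipoq and Cfd among the 8, while 12 of 12 markers of preadipocytes and fibroblasts were above background throughout. Of 14 macrophage and leukocyte markers on the array 7 were above background on all arrays, and 4, Ptprc, Adgre1, Tyrobp and Laptm5, on none. In such bulk RNA, fewer cells of a type and less RNA per cell cannot be told apart.

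Complement starts along 3 routes that meet at C3. In the classical route C1q recruits the proteases C1r and C1s, which cut C4 and C2. In the lectin route MASP proteases do the same, and in the alternative route factor B pairs with C3b and is cut by factor D. Each route builds a C3 convertase, and the C3b it deposits leads on to C5 and the membrane attack complex. Serping1 (C1 inhibitor) blocks C1r, C1s and the MASPs, Cd55 (decay-accelerating factor) takes convertases apart, and Cd59a keeps the membrane attack complex from forming. The liver makes most plasma complement and adipose tissue is a further source, with factor D (Cfd, adipsin) known as an adipocyte product. C3, C4b and Cfb are acute phase genes, which inflammatory cytokines raise in liver, and C/EBP, STAT and NF-kB proteins are known regulators of acute phase promoters.

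Promoter sequences of 4 of the 8 genes (C3, C1ra, Cd55 and Cd59a) were in the RefSeq table of build GRCm38.p6, and the 250 bases before the listed start were searched on both strands. The motifs were the C/EBP core TTNNGNAA, the STAT site TTCNNNGAA, the NF-kB consensus, TATAAA and the Sp1 box GGGCGG. C3 is shown as the hub of the cascade and Cd55 as the member with the largest change at 6 h, and capitals mark the motif matches, C/EBP in C3 and Sp1 in Cd55.
C3, chr17:57228137-57228386, minus strand: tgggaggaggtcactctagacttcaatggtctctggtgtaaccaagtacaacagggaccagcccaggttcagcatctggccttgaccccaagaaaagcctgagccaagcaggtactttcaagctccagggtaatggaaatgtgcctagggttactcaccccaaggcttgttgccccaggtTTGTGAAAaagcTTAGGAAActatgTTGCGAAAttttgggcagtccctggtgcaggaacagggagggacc
Cd55, chr1:130462745-130462994, minus strand: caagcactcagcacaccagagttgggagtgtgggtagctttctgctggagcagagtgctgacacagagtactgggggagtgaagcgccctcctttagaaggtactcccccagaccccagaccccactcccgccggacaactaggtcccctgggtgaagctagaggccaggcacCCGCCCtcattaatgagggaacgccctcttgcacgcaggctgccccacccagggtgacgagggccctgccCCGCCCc
C3 held 3 C/EBP core matches, TTGTGAAA at -70 to -63 from the start, TTAGGAAA at -58 to -51 and TTGCGAAA at -45 to -38. At least 1 such match stood in 36.85% of the 32841 promoters searched, and 3 or more in 2.616%. C1ra held 2 C/EBP core matches and none of the other motifs. Cd55 held 2 Sp1 boxes, a motif present in 32.749% of promoters, and Cd59a held no match to any of the 5. STAT matches stood in 7.022%, NF-kB matches in 3.901% and TATAAA in 12.369% of all promoters, and in none of the 4. The annotated Cd55 and Cd59a genes reach further upstream than the start listed for these promoters, so other transcripts may start elsewhere. A match here is a run of letters and not a measured binding site.

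Levels below are log2 processed signal minus the array's 75th percentile, called relative log2 signal, so a level of 0 equals that percentile. Levels of different probes are not comparable, because probes differ in how brightly they light up for the same amount of RNA.

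C3, the protein on which all routes converge, had 10 spots of its main probe on each array. Its relative log2 signal was 7.35 and 7.29 with knockdown supernatant at 6 h, against 7.36 and 7.26 with control supernatant. At 3 h C3 read 7.35 and 7.28 with knockdown supernatant, against 7.45 and 7.32 with control supernatant. The arrays of the 2 supernatants overlapped at both times. The knockdown effect was 0.01 ± 0.08 (SE) at 6 h, with a 95% interval of -0.18 to 0.20, and -0.07 ± 0.08 at 3 h, with an interval of -0.26 to 0.12. The SD between the 10 spots on an array was 0.03 to 0.06, smaller than the gap between the replicate arrays of each group. A second C3 probe gave knockdown effects of -0.02 at 6 h and 0.01 at 3 h. The adjusted p of C3 in limma was 0.960 at 6 h and 0.851 at 3 h.

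C4b encodes C4, whose cleavage starts the classical and lectin convertase. Its probe read 2.00 and 1.91 with knockdown supernatant at 6 h and 2.04 and 1.90 with control supernatant. The 3 h arrays read 1.91 and 1.90 with knockdown supernatant and 1.95 and 1.98 with control supernatant. At 6 h the supernatants overlapped, and at 3 h both knockdown arrays were below both control arrays by a small gap. The effect was -0.02 ± 0.07 at 6 h, with a 95% interval of -0.20 to 0.16, and -0.06 ± 0.07 at 3 h, with an interval of -0.24 to 0.12. C4a, a close copy of C4b, has no named probe here, and signal from it cannot be separated from that of C4b.

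C1ra, a mouse copy of the C1r protease, read 3.63 and 3.62 with knockdown supernatant at 6 h, against 3.39 and 3.58 with control supernatant. The 3 h levels of C1ra were 3.70 and 3.68 with knockdown supernatant, against 3.72 and 3.68 with control supernatant. Both knockdown arrays exceeded both control arrays at 6 h, and the supernatants overlapped at 3 h. The effect was 0.14 ± 0.08 at 6 h (limma adjusted p = 0.376) and -0.02 ± 0.08 at 3 h. C1rb, its near copy and on the other pathway list, gave 0.04 at 6 h, and signal from a shared sequence could come from either gene. A second, dimmer C1ra probe read 2.98 and 3.11 with knockdown supernatant at 6 h, against 2.99 and 3.02 with control supernatant. Its 6 h arrays thus overlapped, and its effect was 0.04 at 6 h and 0.01 at 3 h. The separation at 6 h was seen on the brighter probe only.

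Cfb, factor B of the alternative route, showed the largest upward estimate among the components. It read 0.06 and 0.10 with knockdown supernatant at 6 h, against -0.22 and -0.05 with control supernatant. After 3 h Cfb read 0.05 and -0.13 with knockdown supernatant, against -0.16 and -0.05 with control supernatant. The 6 h arrays did not overlap and the 3 h arrays did. The effect of 0.21 ± 0.10 at 6 h had a 95% interval of -0.03 to 0.46 and did not pass (limma adjusted p = 0.304), and at 3 h it was 0.06 ± 0.10. Masp1, a lectin route protease, read -1.85 on the first knockdown array at 6 h and was not well above background on the other 7 arrays, so its level there has only a bound.

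Serping1, the C1 inhibitor, read -0.13 and 0.11 with knockdown supernatant at 6 h, against -0.23 and -0.01 with control supernatant. After 3 h Serping1 read -0.01 and -0.12 with knockdown supernatant, against -0.33 and -0.15 with control supernatant. The supernatants overlapped at 6 h, and at 3 h both knockdown arrays were the higher ones. The effect was 0.11 ± 0.13 at 6 h, with a 95% interval of -0.20 to 0.42, and 0.18 ± 0.13 at 3 h, with an interval of -0.13 to 0.49. The second Serping1 probe read -0.87 and -0.86 with knockdown supernatant at 6 h, against -1.11 and -0.94 with control supernatant, and -0.85 and -1.05 at 3 h, against -1.22 and -1.02.

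Cd55, the decay-accelerating factor, had its lowest levels with knockdown supernatant at 6 h, at -1.49 and -1.50, against -1.02 and -1.09 with control supernatant. Its 3 h levels were -0.56 and -1.09 with knockdown supernatant, against -0.82 and -0.98 with control supernatant. The knockdown arrays lay below the control arrays at 6 h, and at 3 h they spread across the control values. The effect was -0.44 ± 0.17 at 6 h, with a 95% interval of -0.86 to -0.01 and an unadjusted p of 0.0452 in the limma model, and it did not pass after adjustment over all features (adjusted p = 0.249). At 3 h it was 0.08 ± 0.17, with an interval of -0.34 to 0.51. Cd55b, a near copy of Cd55, gave -0.10 at 6 h and -0.02 at 3 h.

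Cd59a, which guards cells against the membrane attack complex, read 0.46 and 0.51 with knockdown supernatant at 6 h, against 0.59 and 0.70 with control supernatant. Its 3 h arrays read 0.83 and 0.79 with knockdown supernatant, against 0.76 and 0.74 with control supernatant. The arrays did not overlap at either time, with knockdown below control at 6 h and above it at 3 h. The effect was -0.16 ± 0.07 at 6 h (limma adjusted p = 0.262) and 0.06 ± 0.07 at 3 h (adjusted p = 0.854). Cd59b, its copy, was not above background on any of the 8 arrays.

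**Figure D1:**
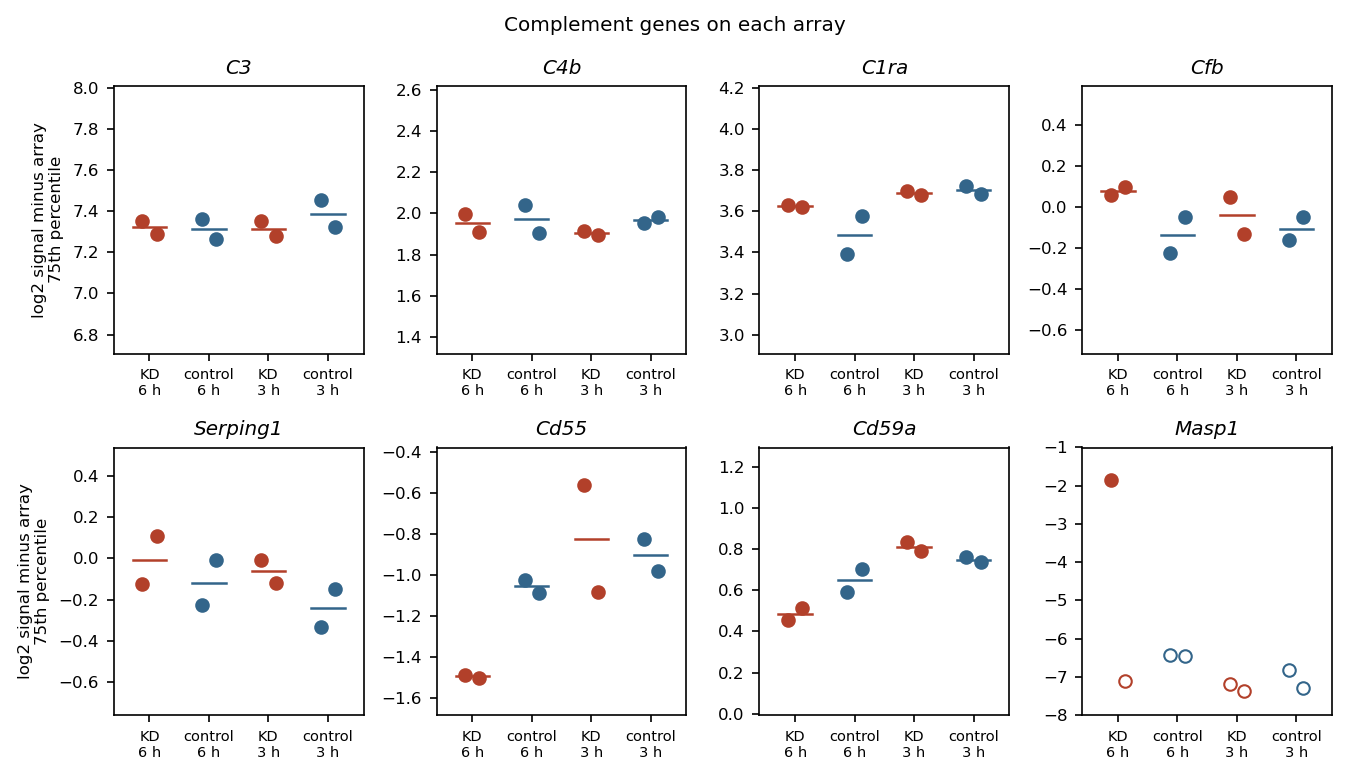
Relative log2 signal (vertical axis, log2 processed signal minus the array's 75th percentile) of each of the 8 genes on the 8 arrays, with points for arrays, bars for the mean of 2 arrays and open points for arrays not well above background. C3 stays between 7.26 and 7.45, Cd55 and Cd59a are lowest with knockdown supernatant at 6 h, and Masp1 is above background on 1 array.

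In the comparison of supernatants, 0 of the 7 tested genes passed at 6 h, at 3 h or averaged over both times, where a gene passed at a limma p under 0.05 after Benjamini-Hochberg adjustment over the 25804 features. Over all features, 2.28% passed at 6 h, 0.244% at 3 h and 3.11% for the average, so with 7 genes a count of 0 is near that background. At an unadjusted p under 0.05 there was 1 of 7 at 6 h, Cd55, and 0 of 7 at 3 h and for the average, against 19.3%, 10.6% and 19.7% of all features. The median change of the 7 genes was 0.01 at 6 h and 0.06 at 3 h, beside 0.00 and -0.02 over all features. Their median size of change, whatever the sign, was 0.14 at 6 h and 0.06 at 3 h, beside 0.15 and 0.10 over all features. The arrays of the 2 supernatants did not overlap for 4 of 7 genes at 6 h (C1ra and Cfb higher, Cd55 and Cd59a lower) and for 3 of 7 at 3 h (Serping1 and Cd59a higher, C4b lower). On the second C1ra probe they did overlap at 6 h. Over all features the arrays did not overlap for 47.6% at 6 h and 47.3% at 3 h.

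**Figure D2:**
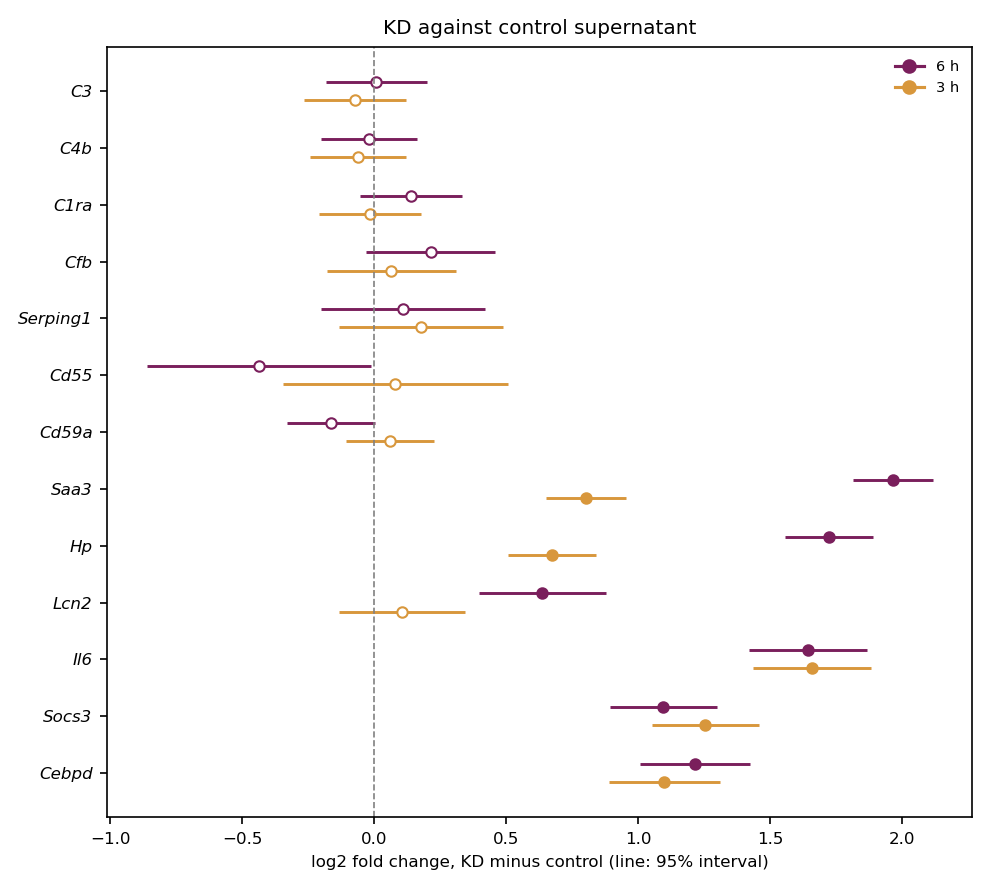
Knockdown minus control change (log2, horizontal axis) of the 7 tested genes and of 6 acute phase and cytokine response genes at 6 h and 3 h, with lines for 95% intervals of the limma model and filled points for genes that passed. The complement estimates lie between -0.44 and 0.21, while Saa3 reaches 1.96 at 6 h.

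Acute phase and cytokine response genes are given beside them because they are known to be raised by the same cytokines as C3 in liver. These were picked with their values known. Saa3, an acute phase serum amyloid, was higher with knockdown supernatant by 1.96 ± 0.06 at 6 h (adjusted p = 0.00278) and 0.80 ± 0.06 at 3 h (adjusted p = 0.0244), in limma. Hp, the haemoglobin-binding haptoglobin, was higher by 1.72 ± 0.07 and 0.67 ± 0.07, and Lcn2, which binds bacterial siderophores, by 0.64 ± 0.10 at 6 h, with 0.11 ± 0.10 not passing at 3 h. The cytokine Il6 was higher by 1.64 ± 0.09 at 6 h and 1.66 ± 0.09 at 3 h, Socs3, an inhibitor of cytokine signalling, by 1.10 ± 0.08 and 1.25 ± 0.08, and Cebpd, a C/EBP factor, by 1.22 ± 0.08 and 1.10 ± 0.08. All of these 6 calls at 6 h were lost when only the 4 arrays of that time were fitted (adjusted p 0.160 to 0.272), and Socs3 and Cebpd also lost theirs without scaling (0.0530 and 0.0535) and without the filter on dim probes (0.0670 and 0.0644). Lcn2 lost its 6 h call under 12 alternatives (up to 0.329), among them leaving out any of 7 arrays. The 3 h calls were lost under 10 or more alternatives each, leaving out any 3 h array among them. The upper end of the 95% interval at 6 h was 0.20 for C3, 0.16 for C4b and 0.46 for Cfb. The lower end was 1.81 for Saa3, the largest of these 6 changes at 6 h, and 0.40 for Lcn2, the smallest. The Lcn2 and Cfb intervals thus overlap. Under the alternatives the 6 h estimates reached 0.19 for C3, 0.17 for C4b and 0.40 for Cfb. Because the comparison genes were picked with their values known, the gap to Saa3 is no test.

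**Figure D3:**
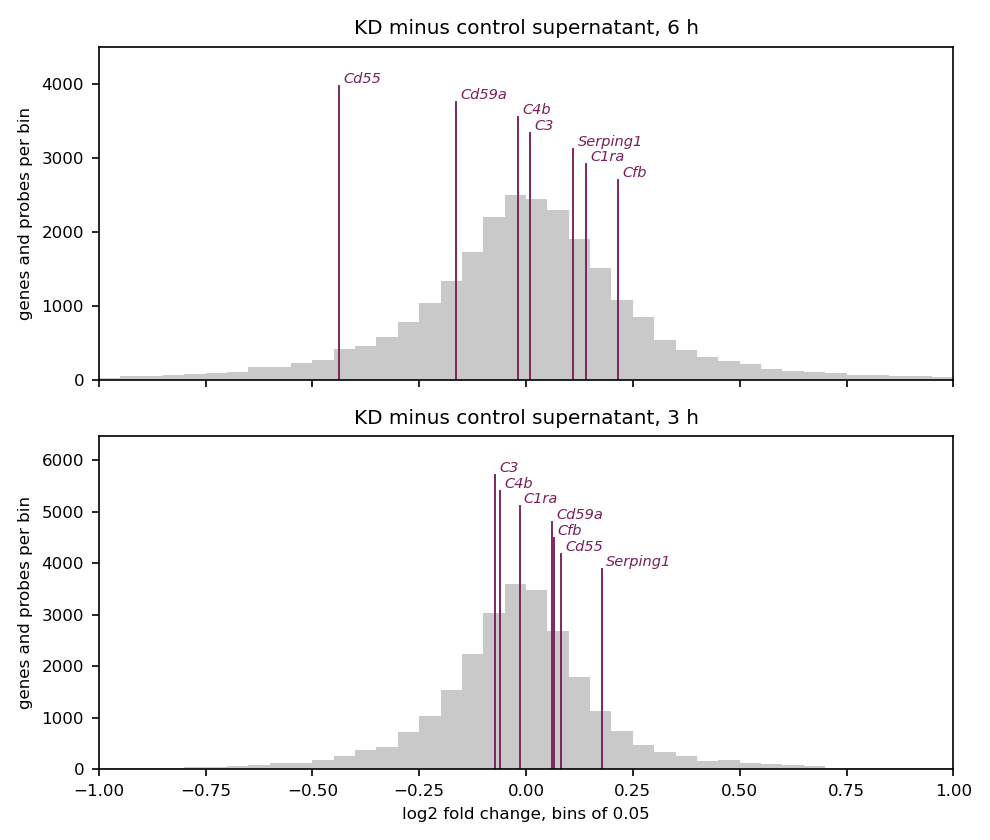
Number of tested genes and probes (vertical axis) by knockdown minus control change (horizontal axis, log2, bins of 0.05) at 6 h and 3 h, with lines at the 7 tested complement genes. The lines run between -0.44 (Cd55) and 0.21 (Cfb) at 6 h, and between -0.07 (C3) and 0.18 (Serping1) at 3 h.

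Between the times, Cd55 and Cd59a fell with knockdown supernatant. Cd55 read -1.49 and -1.50 at 6 h, against -0.56 and -1.09 at 3 h, a change of -0.67 ± 0.17 (0.629 times the 3 h level) with a 95% interval of -1.09 to -0.25 (limma adjusted p = 0.0261). Cd59a read 0.46 and 0.51 at 6 h, against 0.83 and 0.79 at 3 h, a change of -0.33 ± 0.07 (0.797 times the 3 h level) with an interval of -0.49 to -0.16 (adjusted p = 0.0121). For both genes the arrays of the times did not overlap. With control supernatant Cd55 read -1.02 and -1.09 at 6 h, against -0.82 and -0.98 at 3 h, a change of -0.15 ± 0.17 (adjusted p = 0.538). Cd59a read 0.59 and 0.70 at 6 h with control supernatant, against 0.76 and 0.74 at 3 h, a change of -0.10 ± 0.07 (adjusted p = 0.290). The difference between the 2 time courses, which equals the knockdown effect at 6 h minus that at 3 h, was -0.52 ± 0.24 for Cd55 (adjusted p = 0.606) and -0.23 ± 0.09 for Cd59a (adjusted p = 0.572), and neither passed, so the time courses are not shown to differ between supernatants. Of all features 0% passed that test of the difference. The 6 h knockdown arrays also enter the 6 h comparison of supernatants, so the low Cd55 and Cd59a values there are the same values.

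The remaining 5 genes did not pass over time with knockdown supernatant, which leaves 2 of 7 lower and 0 higher, beside 22.2% lower and 39.9% in either direction over all features. With control supernatant 0 of 7 passed, beside 39.9% of all features. C1ra came closest there with a change of -0.22 ± 0.08, at 3.39 and 3.58 at 6 h against 3.72 and 3.68 at 3 h (adjusted p = 0.0733). Its second probe gave -0.11, with a limma adjusted p of 0.285 when every tested probe was fitted on its own. The median change over time of the 7 genes was 0.01 with knockdown and -0.07 with control supernatant, beside -0.11 and -0.07 over all features. The arrays of the times did not overlap for 4 of 7 genes with knockdown supernatant (Cfb higher, C1ra, Cd55 and Cd59a lower) and 3 of 7 with control supernatant (C1ra, Cd55 and Cd59a lower), beside 77.5% and 67.3% of all features. On the second C1ra probe the times did overlap with knockdown supernatant.

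The calls of Cd55 and Cd59a over time rested on few arrays. Without the first knockdown array at 6 h neither passed (adjusted p = 0.0911 for Cd55 and 0.0658 for Cd59a). Without the second knockdown array at 6 h Cd55 did not pass (0.0945), and without the first or the second at 3 h Cd59a did not (0.0730 and 0.0513). The Cd55 change was -0.41 without the first knockdown array at 3 h and -0.93 without the second, since these 2 arrays read -0.56 and -1.09. With no scaling between arrays, which moved the median of all features by 0.16 over time with knockdown supernatant, the changes were -0.51 for Cd55 and -0.16 for Cd59a and neither passed.

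Cell type markers moved in both directions between the same arrays. Of 8 tested macrophage and leukocyte markers, Cd14 and Aif1 rose with time under knockdown supernatant (0.31 and 0.76) and Itgam fell by 0.56. With control supernatant Cd14 and Aif1 rose as well (0.44 and 0.68), while Itgam did not pass (-0.18). The summed signal of the 14 macrophage and leukocyte markers, in multiples of the 75th percentile, was 38.8 and 41.8 with knockdown supernatant at 6 h and 53.4 and 55.2 at 3 h, while with control supernatant it was 43.5 and 38.2 at 6 h and 44.9 and 42.9 at 3 h. Itgam made up 79.6% to 88.0% of that sum, and the other 13 genes summed to 7.91 and 7.98 with knockdown supernatant at 6 h, against 6.88 and 6.62 at 3 h. The sum for the 15 adipocyte markers was 193 and 202 with knockdown supernatant at 6 h, against 243 and 236 at 3 h, and 211 and 200 with control supernatant at 6 h, against 243 and 242 at 3 h. Fabp5 made up 70.9% to 75.5% of it, and the other 14 genes summed to 56.0 and 57.6 with knockdown supernatant at 6 h, against 62.8 and 61.6 at 3 h. With control supernatant these 14 summed to 58.2 and 57.0 at 6 h, against 61.6 and 59.4 at 3 h. Among the 6 tested adipocyte markers Fabp4, Fabp5 and Cebpa fell by 0.26, 0.33 and 0.58 with knockdown supernatant, and Dgat2 rose by 0.90. With control supernatant Fabp5 and Cebpa fell by 0.30 and 0.68, Dgat2 rose by 0.89, and Fabp4 did not pass (-0.19). Of the 12 preadipocyte and fibroblast markers, Pdgfra rose by 0.32 and Pdgfrb fell by 0.43 with knockdown supernatant, and 10 did not pass. With control supernatant Pdgfrb, Thy1 and Postn fell by 0.35, 0.24 and 0.25, and Pdgfra did not pass (0.19). The summed signal of the 12 was 1987 and 1864 with knockdown supernatant at 6 h, against 2095 and 2074 at 3 h. With control supernatant it was 2191 and 1953 at 6 h, against 2187 and 2067 at 3 h. The part of these cell type markers in the Cd55 and Cd59a changes was not tested.

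**Figure D4:**
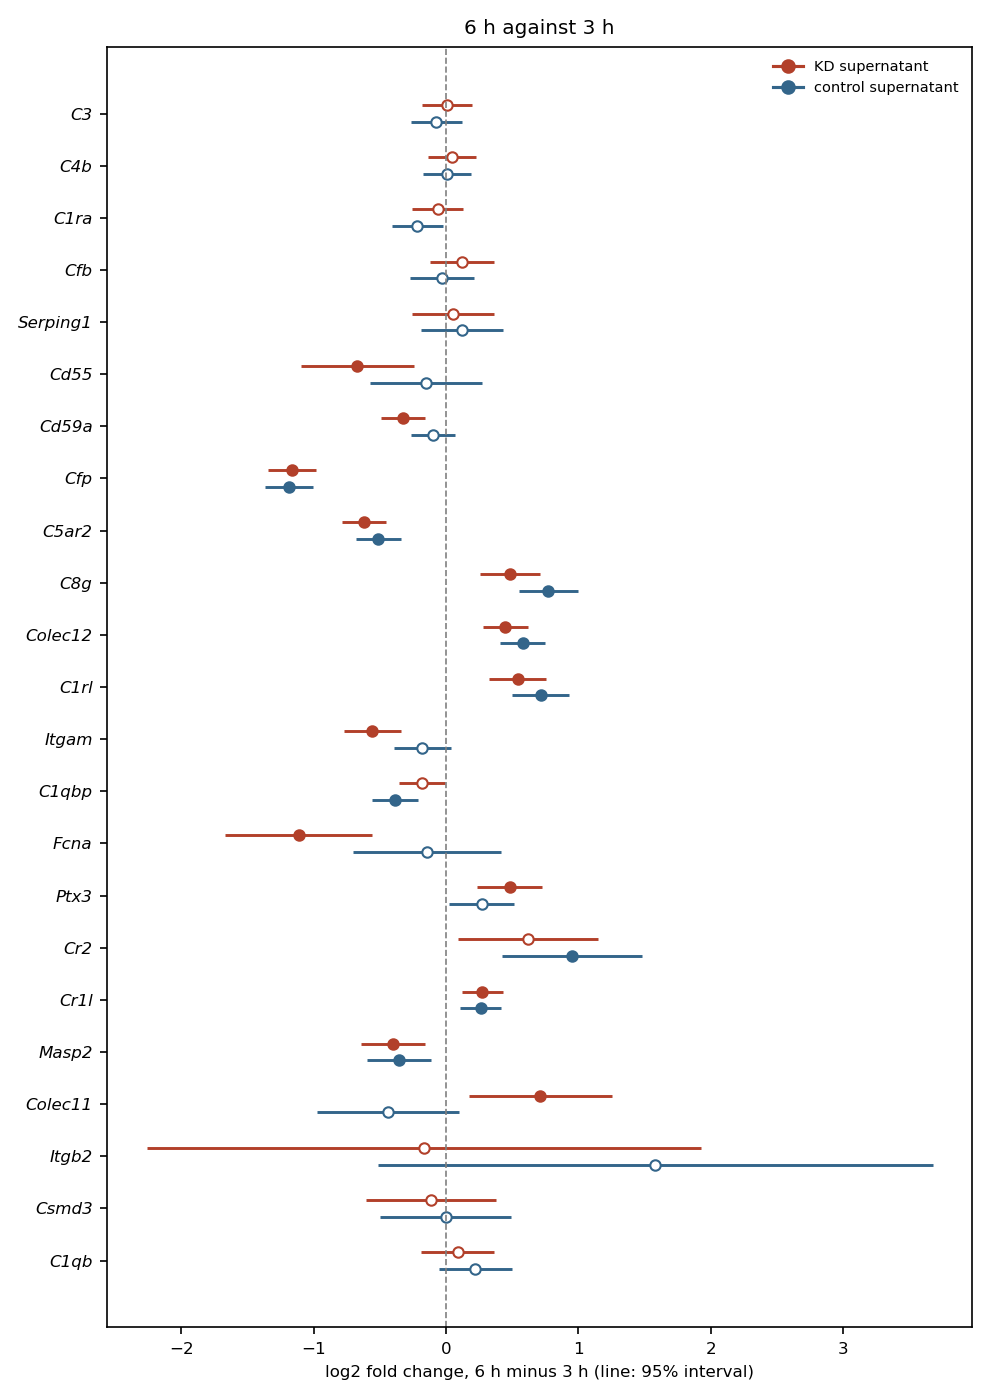
Change over time (log2, 6 h minus 3 h, horizontal axis) of the 7 tested genes and, below them, of 16 genes of the wider complement list, with knockdown and with control supernatant, lines for 95% intervals of the limma model and filled points for genes that passed. Among the 7, only the intervals of Cd55 (-0.67) and Cd59a (-0.33) with knockdown and of C1ra (-0.22) with control supernatant leave out 0, and C1ra did not pass after adjustment.

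The time plot also shows genes of a wider list. This list of 56 complement genes held 53 with a probe, of which 25 were tested. The genes above background on no array included C1qa, C1qc, C8a, C8b, C9, Cfd, Cfi, C4bp, Cd59b, C3ar1, C5ar1, Fcnb, Colec10, Itgax, Vtn, Csmd1, Crp and Apcs. Among these are factor D, factor I (which cuts C3b), C3ar1 and C5ar1 (receptors for C3a and C5a), and 3 parts of the membrane attack complex, so several steps around the measured components gave no signal above background. C4a, Cfhr3 and Csmd2 had no named probe.

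Of the 25 tested genes, 1 passed between supernatants at 6 h and for the average, and 0 at 3 h. That gene was Ptx3, a pentraxin that binds C1q and is known as an inflammation marker. Ptx3 read 2.14 and 2.33 with knockdown supernatant at 6 h, against 1.47 and 1.63 with control supernatant, and 1.77 and 1.75 at 3 h, against 1.34 and 1.22. All knockdown arrays were above the control arrays of their time. Its change was 0.69 ± 0.10 at 6 h (limma adjusted p = 0.0338), 0.48 ± 0.10 at 3 h (adjusted p = 0.171) and 0.58 ± 0.07 for the average (adjusted p = 0.0164). The 6 h call was lost without scaling between arrays (adjusted p = 0.271) and when any array other than the second control array at 6 h was left out (0.0689 to 0.113). The average was not called without any of the 4 arrays at 3 h (0.0694 to 0.0898). Of genes named for the smallest p at 6 h, Itgb2, the beta chain of complement receptor 3, read 1.49 on the second control array at 6 h and at most -1.36 on the other arrays. That spot lay in an area of raised signal, and with such areas masked the 6 h change was -0.34, against -1.77 otherwise, without passing either way. Colec11, Csmd3 and C1qb, also named for that p, did not pass at 6 h.

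Over time the wider list split in both directions. With knockdown supernatant 6 of 25 rose and 5 fell, and with control supernatant 5 rose and 4 fell, shares close to the 39.9% of all features that passed. Cfp, properdin, which stabilises the alternative route convertase, read 0.77 and 0.75 at 6 h with knockdown supernatant, against 1.92 and 1.93 at 3 h. With control supernatant Cfp read 0.86 and 0.70 at 6 h, against 1.99 and 1.95 at 3 h. It fell by 1.16 ± 0.07 with knockdown and by 1.18 ± 0.07 with control supernatant (limma adjusted p = 0.000236 and 0.000220), more than any other of these genes called with both supernatants, and stayed called under every alternative run.

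C5ar2, an alternative C5a receptor, fell by 0.62 with knockdown and 0.51 with control supernatant, calls lost without scaling between arrays. Masp2, the lectin route protease that cuts C4, fell by 0.40 and 0.35. Colec12, a scavenger receptor of the collectin family, rose by 0.45 and 0.58 and stayed called under every alternative, as did C1rl, a C1r-like protease, which rose by 0.54 and 0.71. Cr1l (Crry), the rodent membrane regulator of C3 convertases, rose by 0.27 and 0.26. Both rest on the processing. The Masp2 call was lost under 7 alternatives with knockdown and 9 with control supernatant (adjusted p up to 0.588 and 0.355), and that of Cr1l under 7 with each (up to 0.108 and 0.540), single arrays left out among them. With the mean of its tested probes the Masp2 change was -0.15 with knockdown and -0.87 with control supernatant. That mean holds a dim probe, above background on 4 arrays and on neither control array at 6 h, which gave 0.16 and -1.92. A further Masp2 probe, above background on all 8 arrays, gave -0.22 and -0.32 without passing. With array medians the Cr1l change was 0.18 and 0.06. C8g, a chain of C8, rose by 0.48 and 0.77 on its brighter probe, while a second probe gave -0.13 and 0.13, so its probes disagree. Its call with knockdown supernatant was lost under 4 alternatives, leaving out the second knockdown array at 3 h among them. Across the alternatives that C8g change was as low as 0.18.

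Called with 1 supernatant were 6 genes. With knockdown supernatant Itgam, the alpha chain of complement receptor 3 and a macrophage marker, fell by 0.56 (a call lost without scaling between arrays, 0.110), Ptx3 rose by 0.48 (a call lost without either 3 h knockdown array, 0.0609 and 0.0662, and without the second at 6 h, 0.0586), and Colec11, a lectin route collectin, rose by 0.71. Of these, the Colec11 call was lost under 11 alternatives, and normexp background correction turned its change to -0.011. The Itgam change is that of its brightest probe. Its dimmer probes, above background on 6 and 5 arrays, gave -0.89 and -0.34, the latter without passing. Fcna, a ficolin of the lectin route, was not above background on either knockdown array at 6 h and was lower there by at least 1.04-fold. It was above background on the 2 knockdown arrays at 3 h alone and entered the test through them, so its place among the 5 that fell carries no weight. With control supernatant Cr2, complement receptor 2, rose by 0.95, and C1qbp, which binds C1q, fell by 0.38. The Cr2 change was 0.38 with normexp (limma adjusted p = 0.121), and its call was lost under 5 alternatives. The C1qbp call was lost under 3, with changes from -0.58 to -0.25 across all alternatives. Leaving out the first control array at 3 h lost the call of both genes. The difference between supernatants did not pass for any of these 6, with 0% of features passing that test.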

How the data were processed

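RNA of 8 samples was hybridised to 1-colour Agilent arrays, 2 per group, with 0.1 ug RNA labelled with Cy3 per the labels' protocols. Sample labels gave the groups and replicate numbers. Per the file headers, the deposited scanner output holds for each spot a processed signal, a background-corrected intensity on a linear scale. The submitters' processing notes name Agilent Feature Extraction 10.7.3.1. Median spot intensity and median background intensity were deposited too and served an alternative. A deposited value table holds log2 values that differ from the log2 processed signals by 1 constant on each array, and was an alternative. Its column medians were -4.11 and -4.22 (knockdown, 6 h), -3.95 and -4.05 (control, 6 h), -4.22 and -4.23 (knockdown, 3 h) and -4.14 and -4.17 (control, 3 h).

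Spots marked as outliers (163 to 319 per array) were left out, each array's 75th percentile was subtracted from its log2 signals, and spots of a probe were averaged. RefSeq names (GRCm38.p6, names only) came through the transcript for 27235 probes and through symbols for 20, and 28426 stayed unnamed. Tested were the 30117 probes that both arrays of some group measured well above background, and the probe with the highest mean stood for its gene. Of 25804 features 13796 were named genes.

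limma 3.58.1 (lmFit, eBayes) in R 4.3.3 fitted 4 group means, with 4 residual and 1.74 prior degrees of freedom. Errors are standard errors of that model. The number of arrays limits the precision. For an at-least fold, every dim array counted at its probe's own signal or at the array's lowest well-measured signal, whichever was higher. Named were all 8 members, wider-list genes called between supernatants or times (up to 12), 4 more by the p at 6 h, genes above background on no array (not all are reported here), and comparison genes, with Cebpd added after its values were known. No member was called between supernatants, so no correlated genes were named. Members and lists were chosen with earlier results of these data known. Alternatives covered scaling, background, source of values, dim probes, probes per gene, samples in the fit, array weights, raised areas, prior variance, a replicate block and leaving out each array. The fit was tested on simulated data. Figures were drawn with Python 3.11.15 and matplotlib 3.10.9.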

Additional observations from a re-analysis of the deposited data

How the results depend on the processing

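The count of members called between supernatants (6 h, 3 h, averaged, and the difference) was 0 under every alternative run. Over time with knockdown supernatant the count of 2 became 0 without scaling and without the filter on dim probes, 1 when only the 4 arrays compared were fitted, and 0 to 2 when arrays were left out. Over time with control supernatant the count of 0 became 2 with array medians (C3 at -0.27 and C1ra at -0.42), 1 with the deposited value table, 1 with a robust prior (C1ra in both), and 0 to 1 when arrays were left out, C1ra passing without the second control array at 6 h. Arrays with the same replicate number did not deviate together (correlations -0.05 to 0.09), so no pairing by number was seen. Such correlations cannot exclude a shared preparation. The replicate block left 2 members called over time with knockdown supernatant (adjusted p = 0.0213 for Cd55 and 0.0212 for Cd59a). With the block Ptx3 was not called at 6 h (adjusted p = 0.0689), and over all features 220 were called at 6 h (588 without the block) and 0 at 3 h (63). Over all alternatives these counts ranged from 0 to 1958 at 6 h, 0 to 354 at 3 h, 76 to 2003 (803) for the average, 0 to 294 (0) for the difference, 5501 to 12222 (10301) over time with knockdown and 5736 to 12381 (10289) with control supernatant. Colec11 over time with knockdown supernatant was -0.0112 under normexp, against 0.71, and the cause was not tested. Array medians moved the median of all features by 0.18 at 6 h and -0.20 over time with control supernatant. Among member values, 12 of 147 turned sign at 6 h and 7 of 147 at 3 h, none of them called. Signal over background limits Masp1, and 2 arrays per group limit all the rest.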
